A study of Mus musculus with 6 samples.

Results

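The CYP4 enzymes are cytochromes P450 that put a hydroxyl group on the far (omega) end of fatty acids and of eicosanoids. This report describes 10 of their genes in mouse liver, chosen as the listed rows of the count files named Cyp4a10, Cyp4a12a, Cyp4a12b, Cyp4a14, Cyp4a31, Cyp4a32, Cyp4f13, Cyp4f14, Cyp4f15 and Cyp4v3, out of 23284 genes in the files and out of 20 rows with a Cyp4 symbol. The study asked how the gut hormone FGF19, the human counterpart of mouse FGF15, changes gene expression in the liver. RNA-seq counts came from whole liver of C57BL/6 mice aged 8 weeks, which were fasted overnight and then given vehicle (3 samples) or FGF19 at 1 mg/kg (3 samples) and kept fasting for 6 h. Fasting was thus common to both groups. Per the study's methods each group had 3 mice, with a library for each biological sample. Total counts lay between 18994654 and 22920056, and the correlation of log2 CPM (counts scaled to a common library total) across genes was between 0.983 and 0.992 for pairs of libraries within a group.

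In the liver, omega-hydroxylation is a side route to the beta-oxidation of fatty acids. A CYP4 enzyme makes the omega-hydroxy acid, alcohol and aldehyde dehydrogenases turn it into a dicarboxylic acid, and peroxisomes shorten the product. The Cyp4a genes are textbook targets of PPARα, the nuclear receptor that fasting fatty acids activate, and Cyp4a12a and Cyp4a12b are in addition male-predominant genes under the control of growth hormone. Cyp4f enzymes act on leukotrienes and long fatty acids, and the human counterpart of Cyp4v3 is the gene of a retinal dystrophy.

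The 6 Cyp4a genes stand side by side on chromosome 4 of mouse genome build mm9, between 114971651 and 115294971, a span of 323.3 kb in which the files list 8 genes. Cyp4f13, Cyp4f14 and Cyp4f15 lie on chromosome 17 between 32822604 and 33084306, and Cyp4v3 lies on chromosome 8 from 46391156 to 46418550. No exon of the 10 genes overlapped an exon of another gene, so antisense reads of a neighbour are not a concern in these counts, which did not use strand. The Cyp4a genes do resemble each other, and reads that align equally well to more than 1 place had been left out of the counts. The coding sequence of Cyp4a10 was 96.6% identical to that of Cyp4a31 and 97.2% identical to that of Cyp4a32, and Cyp4a12a and Cyp4a12b were 98.6% identical. Cyp4a14 was 77.0% identical to Cyp4a10, and the closest pair of Cyp4f genes, Cyp4f14 and Cyp4f15, was 80.7% identical.

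Stretches of 60 coding bases are shown here because reads or mates that cover differing bases tell the copies apart. Each stretch was chosen so that the copy closest to the first one in it still had as many differences as possible. Capitals mark the positions at which the copies of a group are not the same. For Cyp4a10 and its near copies the stretch is coding base 214 to 273, with 3 differences from Cyp4a10 in Cyp4a31 and 9 in Cyp4a32, out of 52 and 43 over the 1530 coding bases.
Cyp4a10: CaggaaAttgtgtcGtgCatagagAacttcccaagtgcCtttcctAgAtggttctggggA
Cyp4a31: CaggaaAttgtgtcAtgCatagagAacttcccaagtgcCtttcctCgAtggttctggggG
Cyp4a32: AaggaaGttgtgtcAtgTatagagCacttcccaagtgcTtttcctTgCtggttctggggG
For the male-predominant pair the stretch is coding base 624 to 683, with 4 of the 23 differences over 1527 coding bases.
Cyp4a12a: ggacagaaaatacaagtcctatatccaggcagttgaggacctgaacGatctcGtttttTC
Cyp4a12b: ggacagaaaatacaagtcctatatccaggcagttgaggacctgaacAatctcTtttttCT

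Taking single reads of 100 bases without their mates, 36.8% of the 100-base windows of the Cyp4a12a exons and 36.2% of those of Cyp4a12b occurred a second time in mm9 or in the spliced exons of another gene. The share was 15.8% for Cyp4a10, 8.22% for Cyp4a31 and 19.0% for Cyp4a32. For Cyp4a14, Cyp4f13, Cyp4f14, Cyp4f15 and Cyp4v3 no window with a second match was found (0 of between 1612 and 2831 windows a gene). A window over an exon junction with a single match elsewhere in mm9, outside the listed genes, was not counted by this search. The counts of Cyp4a12a, Cyp4a12b, Cyp4a10, Cyp4a31 and Cyp4a32 may miss reads and are uncertain in level for that reason. A mate can place a read of a shared stretch, and the number of reads lost was not measured.

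Per exon length, Cyp4a14 and Cyp4a10 were far above the other CYP4 genes of the fasted liver. In RPKM (CPM per kilobase of exon) the vehicle-treated mice had 3194 ± 505 of Cyp4a14 and 2111 ± 171 of Cyp4a10 (SD, n = 3). Cyp4v3 followed at 164 ± 21.0 RPKM and Cyp4a12a at 109 ± 4.98 RPKM (SD, n = 3). Cyp4f15 was at 71.2 ± 1.02, Cyp4a12b at 53.7 ± 8.997 and Cyp4f13 at 50.4 ± 4.65 RPKM (SD, n = 3). The lowest were Cyp4a32 at 40.9 ± 8.62, Cyp4f14 at 38.8 ± 6.82 and Cyp4a31 at 27.1 ± 4.58 RPKM (SD, n = 3). Cyp4a14 stood above Cyp4a10, Cyp4a10 above Cyp4v3, Cyp4v3 above Cyp4a12a, Cyp4a12a above Cyp4f15 and Cyp4f15 above Cyp4a12b in every vehicle library. This order is that of the counted reads. The reads left out of Cyp4a12a, Cyp4a12b, Cyp4a31 and Cyp4a32 were not allowed for and could change the place of these genes, as of Cyp4a12a against Cyp4v3. Of the neighbours further down, Cyp4a12b and Cyp4f13, Cyp4f13 and Cyp4a32, and Cyp4a32 and Cyp4f14 overlapped in their values, and Cyp4f14 and Cyp4a31 did not. Cyp4a14 alone took between 0.660% and 0.916% of all counts in the vehicle-treated mice and was between the 8th and the 15th most counted gene.

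**Figure D1:**
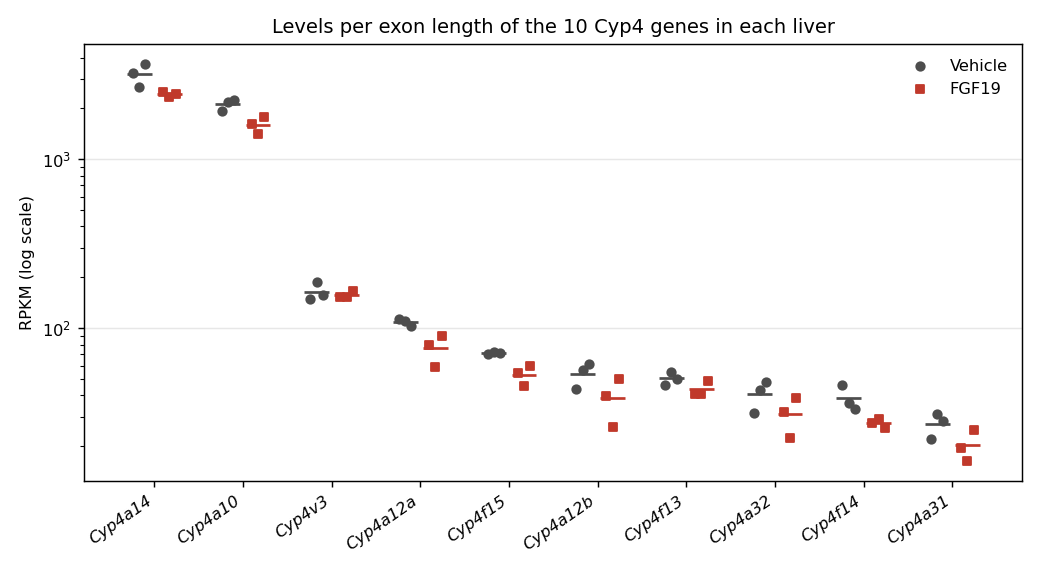
Level per exon length in RPKM (log axis) of the 10 genes, ordered by the vehicle mean, with 1 point for each of the 3 Vehicle (circles) and 3 FGF19 (squares) livers and a line at the group mean. Cyp4a14 and Cyp4a10 (vehicle means of 3194 and 2111 RPKM) lie far above the other 8 genes, of which Cyp4v3 is the highest at 164 RPKM by counted reads. Reads of shared sequence that were left out, as for Cyp4a12a, are not allowed for.

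After FGF19 all 10 genes had a log2 fold change below 0, where 50.1% of all genes tested did. The change was between -30.1% and -13.9% for 9 of them and -3.79% for Cyp4v3. Of these differences, those of Cyp4f14 and Cyp4f15 passed an adjusted p of 0.05 over all 12559 genes with enough counts (quasi-likelihood test of edgeR, adjusted by Benjamini-Hochberg), and those of the 6 Cyp4a genes, of Cyp4f13 and of Cyp4v3 did not. In that test 2.84% of all genes were lower and 4.56% were higher. All 10 genes passed the filter on low counts, and so each was tested. The log2 fold changes of the 6 Cyp4a genes lay between -0.52 and -0.40, with a median of -0.41, and those of the other 4 between -0.50 and -0.06, with a median of -0.32, where the median over all genes tested was -0.00. In bulk liver, fewer cells that express a gene and less RNA of it per cell cannot be told apart.

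The Cyp4a genes are given first. Cyp4a14 encodes a lauric acid omega-hydroxylase that PPARα agonists induce strongly. It was at 8105, 6646 and 9156 CPM in vehicle replicates 1, 2 and 3 and at 6216, 5812 and 6109.8 CPM in FGF19 replicates 1, 2 and 3. The groups did not overlap, and the spread was larger in the vehicle group (1261 CPM, SD) than in the FGF19 group (209 CPM, SD). The log2 fold change of Cyp4a14 was -0.40 (standard error 0.127), with an adjusted p of 0.0952 in edgeR's quasi-likelihood test.

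Cyp4a10, the second abundant fatty acid omega-hydroxylase of the family, was at 4002, 4530.4 and 4681 CPM in the vehicle-treated mice and at 3382, 2947 and 3697 CPM in the FGF19-treated mice. Its groups did not overlap either, and the log2 fold change of -0.40 had a standard error of 0.116 (adjusted p = 0.0727 in edgeR's quasi-likelihood test). Within a liver, the ratio of Cyp4a14 to Cyp4a10 per length was 1.69, 1.23 and 1.64 with vehicle and 1.54, 1.65 and 1.38 with FGF19, values that overlapped between the groups.

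Cyp4a12a, an arachidonic acid omega-hydroxylase of male mice, was at 274, 267 and 251 CPM with vehicle and at 194, 144 and 216 CPM with FGF19. The vehicle values lay close together (12.1 CPM, SD) and above all FGF19 values, and the log2 fold change was the most negative of the 10 genes (-0.52, standard error 0.138, adjusted p = 0.0544 in edgeR's quasi-likelihood test). Its near copy Cyp4a12b was at 105, 135 and 146 CPM with vehicle and at 94.9, 61.9 and 119.8 CPM with FGF19. Here FGF19 replicate 3 was above vehicle replicate 1, so the groups overlapped, at -0.48 on the log2 scale (standard error 0.214, adjusted p = 0.217 in edgeR's quasi-likelihood test). Summed, which removes the question of how reads were divided between the copies but not the reads left out, Cyp4a12a and Cyp4a12b gave 379, 402 and 397 CPM with vehicle and 289, 206 and 336 CPM with FGF19. The sums did not overlap, and the log2 ratio of the group means was -0.50, given as a value with no test.

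Cyp4a31 and Cyp4a32, little-studied copies next to Cyp4a10, were at lower levels. Cyp4a31 was at 55.3, 77.6 and 71.3 CPM with vehicle and at 49.4, 41.2 and 62.5 CPM with FGF19. Cyp4a32 was at 59.9, 82.9 and 91.9 CPM with vehicle and at 61.3, 42.8 and 74.2 CPM with FGF19. In both genes vehicle replicate 1 lay between the lowest and highest FGF19 values, and the log2 fold changes of -0.41 (standard error 0.166) and -0.40 (standard error 0.204) had adjusted p of 0.171 and 0.287 in edgeR's quasi-likelihood test. The sum of Cyp4a10, Cyp4a31 and Cyp4a32 had a log2 ratio of group means of -0.40, the same as Cyp4a10 alone, which holds most of it.

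As a set, 0 of the 6 Cyp4a genes passed an adjusted p of 0.05 in edgeR's quasi-likelihood test. At an unadjusted p under 0.05 there were 5, where 11.3% of all genes were lower and 11.6% higher. At the study's threshold of p under 0.01 there were 2 (Cyp4a10 and Cyp4a12a), where 4.98% of all genes were lower and 6.2% higher. In 3 of the 6 all FGF19 values lay under all vehicle values, which held for 13.8% of all genes, while 14.5% had all FGF19 values above. DESeq2, edgeR's likelihood ratio test and edgeR's exact test each put 3 of the 6 below an adjusted p of 0.05 (Cyp4a10, Cyp4a12a and Cyp4a14), and limma-voom put 0. Over all genes the same fits put 519, 579, 566 and 358 genes lower, against 357 in edgeR's quasi-likelihood test. Without FGF19 replicate 3, 4 of the 6 passed in edgeR's quasi-likelihood test, with adjusted p of 0.0207 for Cyp4a10, 0.0122 for Cyp4a12a, 0.0433 for Cyp4a12b and 0.0334 for Cyp4a31. Without vehicle replicate 2, Cyp4a14 passed (adjusted p = 0.0381 in the same edgeR test). These fits put 926 and 202 of all genes lower. The side of the threshold on which these genes fall thus depended on the test and on single libraries, while the log2 fold change of each of the 6 was negative in all 14 other fits.

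**Figure D2:**
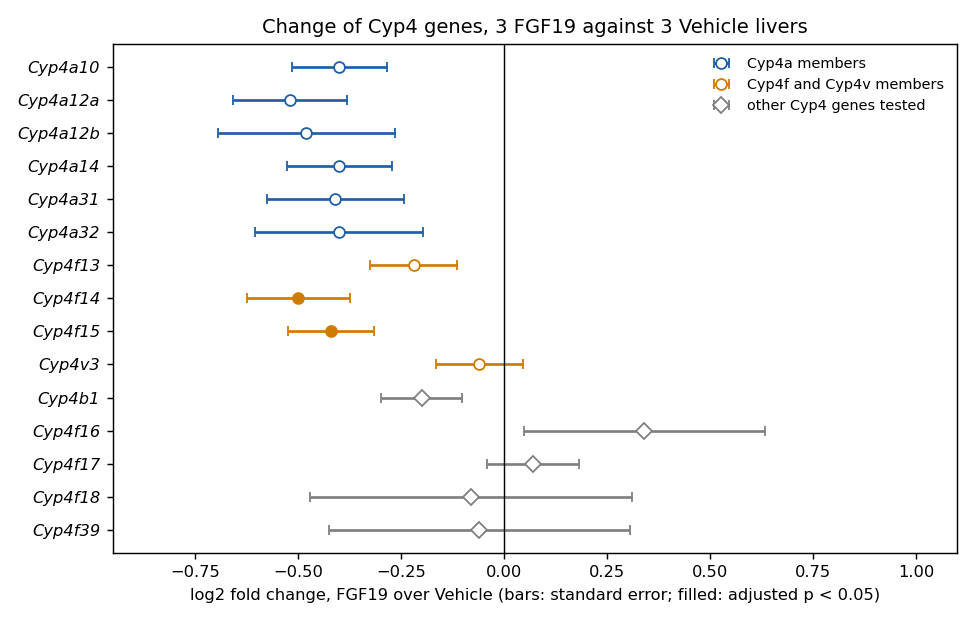
Log2 fold change of FGF19 over Vehicle (x axis) with its standard error for the 10 members and the 5 other Cyp4 genes that were tested, 3 livers a group. The 6 Cyp4a genes sit between -0.52 and -0.40, and only the filled points, Cyp4f14 and Cyp4f15, passed an adjusted p of 0.05 in the reported edgeR fit.

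Among the Cyp4f genes, Cyp4f14 encodes a leukotriene B4 omega-hydroxylase of mouse liver. It was at 112, 87.4 and 80.5 CPM with vehicle and fell to 65.8, 69.9 and 62.0 CPM with FGF19. The FGF19 values lay close together (3.98 CPM, SD) below all vehicle values, and the level fell by 29.3% (log2 fold change -0.50, standard error 0.125, adjusted p = 0.0418 in edgeR's quasi-likelihood test). Cyp4f15, a close relative, had nearly equal values in the vehicle-treated mice, 149, 153 and 153 CPM, and fell to 116, 97.1 and 127 CPM with FGF19. All 3 FGF19 values of Cyp4f15 lay below the vehicle range (log2 fold change -0.42, standard error 0.105, adjusted p = 0.0418 in edgeR's quasi-likelihood test).

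The call of Cyp4f14 was lost with no TMM scaling (adjusted p = 0.0606 in edgeR's quasi-likelihood test) and with any of the 6 libraries left out. That of Cyp4f15 was lost without any library but FGF19 replicate 3. With the replicate number as a block both calls were lost, with adjusted p of 0.0667 for Cyp4f14 and 0.0837 for Cyp4f15 in the same edgeR test. When 1 library was left out, the adjusted p of Cyp4f14 in edgeR's quasi-likelihood test was 0.103, 0.0675 and 0.0536 without vehicle replicates 1, 2 and 3 and 0.129, 0.0994 and 0.0560 without FGF19 replicates 1, 2 and 3, so the call was lost each time. That of Cyp4f15 was 0.0963, 0.103 and 0.140 without vehicle replicates 1, 2 and 3, 0.122 and 0.151 without FGF19 replicates 1 and 2, and 0.00822 without FGF19 replicate 3. The log2 fold changes stayed between -0.59 and -0.35 for Cyp4f14 and between -0.51 and -0.32 for Cyp4f15 in these fits. Calls over all genes changed as well. The lower genes were 168, 202 and 107 without vehicle replicates 1, 2 and 3. Without FGF19 replicates 1, 2 and 3 they were 118, 91 and 926, against 357 with all libraries.

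Cyp4f13, the other Cyp4f member of the cluster, was at 79.0, 94.8 and 85.1 CPM with vehicle and at 69.8, 69.6 and 83.4 CPM with FGF19. FGF19 replicate 3 was within the vehicle range, and the log2 fold change of -0.22 (standard error 0.106) did not pass the test (adjusted p = 0.265 in edgeR's quasi-likelihood test). Cyp4v3, a fatty acid omega-hydroxylase outside both clusters, was at 433, 550.3 and 458 CPM with vehicle and at 451, 449 and 487 CPM with FGF19. All 3 FGF19 values lay inside the vehicle range, a difference of -0.06 on the log2 scale (standard error 0.106, adjusted p = 0.806 in edgeR's quasi-likelihood test).

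Set against each other within a liver, the summed Cyp4a and the summed Cyp4f counts kept a like ratio. Cyp4a14 made up between 56.6% and 64.3% of the summed Cyp4a counts of a library, and Cyp4a10 between 31.8% and 38.6%. The Cyp4a sum thus speaks mainly for Cyp4a14 and Cyp4a10 and little for the other Cyp4a genes. The summed Cyp4a counts were 37.0, 34.99 and 45.2 times the summed counts of Cyp4f13, Cyp4f14 and Cyp4f15 with vehicle and 39.8, 38.2 and 37.7 times with FGF19, a difference of the mean log2 ratio of -0.01. Against Cyp4v3, the summed Cyp4f counts gave ratios of 0.785, 0.610 and 0.696 with vehicle and of 0.557, 0.527 and 0.560 with FGF19, so that the groups did not overlap. The summed Cyp4a counts were 29.1, 21.3 and 31.4 times those of Cyp4v3 with vehicle and 22.2, 20.2 and 21.1 times with FGF19, and here vehicle replicate 2 lay among the FGF19-treated mice. These ratios are descriptions with no test, since the genes were chosen with results of these data known, and the smallest two-sided p of an exact permutation test of 3 samples against 3 is 0.1. In log2 ratios of group means the summed Cyp4a counts were at -0.40 and the summed Cyp4f counts at -0.39, beside the fitted -0.06 of Cyp4v3.

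The libraries of a group differed in the same order for many of the genes. FGF19 replicate 2 had the lowest CPM of its group for 9 of the 10 genes, with a median of -0.78 for the Cyp4a genes on the log2 scale relative to the vehicle mean, where FGF19 replicates 1 and 3 had medians of -0.40 and -0.18. FGF19 replicate 3 had the highest value of its group for 8 of the 10 genes. In the vehicle group, replicate 1 had the lowest value for 7 of the 10. Cyp4f14 was the exception at the low end, with FGF19 replicate 3 lowest and replicate 2 highest, and in Cyp4a14 FGF19 replicate 1 was the highest.

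**Figure D3:**
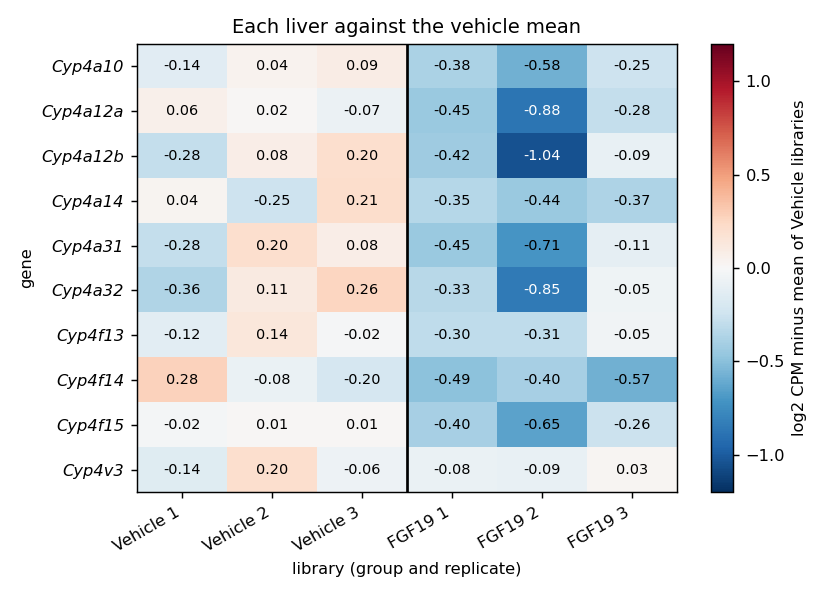
Log2 CPM of each gene (rows) in each liver (columns) minus the mean of the 3 Vehicle livers, blue for lower and red for higher. FGF19 replicate 2 is the darkest column for the Cyp4a genes (median -0.78), and Cyp4v3 is near 0 in all 3 FGF19 livers.

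Of the 10 other rows with a Cyp4 symbol, 5 had enough counts to be tested and 0 passed an adjusted p of 0.05 in edgeR's quasi-likelihood test (0 at an unadjusted p under 0.05 as well, and 0 by DESeq2, limma-voom and edgeR's likelihood ratio and exact tests). Cyp4b1, next to the Cyp4a cluster, was at 16.6, 16.96 and 17.5 CPM with vehicle and at 15.1, 14.3 and 14.99 CPM with FGF19, values that did not overlap (log2 fold change -0.20, standard error 0.098, adjusted p = 0.255 in the same edgeR test). Cyp4f17 was at 14.9 ± 1.47 and 15.7 ± 0.189 CPM (SD, n = 3). Cyp4f18, known from neutrophils and other myeloid cells, had between 7 and 14 counts a library. Cyp4a29-ps, Cyp4f40 and Cyp4x1 had 0 counts in all 6 libraries, which allows up to between 0.131 and 0.158 CPM a library (3 counts, counting error only).

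The promoters of the genes that passed the test are shown because Cyp4f14 and Cyp4f15 were lower together, with those of Cyp4f13 of the same cluster and Cyp4a32, the Cyp4a gene for which a window was at hand. The sequences are the 250 bases before the gene start from RefSeq (table of build GRCm38.p6), placed on mm9 by exact match at the gene start of the files. Of the 10 members 5 matched the table, and Cyp4a10, Cyp4a12a, Cyp4a12b, Cyp4a14 and Cyp4a31 did not. Capitals mark matches to CCAAT or TATAAA on either strand, and coordinates are those of mm9.
Cyp4f14, chr17:33054288-33054537, minus strand: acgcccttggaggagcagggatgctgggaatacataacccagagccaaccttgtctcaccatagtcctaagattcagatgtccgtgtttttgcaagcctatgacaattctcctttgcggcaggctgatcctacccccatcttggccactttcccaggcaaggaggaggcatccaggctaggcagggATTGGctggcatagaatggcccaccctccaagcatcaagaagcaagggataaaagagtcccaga
Cyp4f15, chr17:32822354-32822603, plus strand: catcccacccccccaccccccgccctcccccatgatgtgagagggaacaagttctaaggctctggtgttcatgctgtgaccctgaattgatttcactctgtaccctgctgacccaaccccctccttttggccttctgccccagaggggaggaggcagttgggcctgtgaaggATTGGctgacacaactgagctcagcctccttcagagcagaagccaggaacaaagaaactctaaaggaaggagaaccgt
Cyp4f13, chr17:33084307-33084556, minus strand: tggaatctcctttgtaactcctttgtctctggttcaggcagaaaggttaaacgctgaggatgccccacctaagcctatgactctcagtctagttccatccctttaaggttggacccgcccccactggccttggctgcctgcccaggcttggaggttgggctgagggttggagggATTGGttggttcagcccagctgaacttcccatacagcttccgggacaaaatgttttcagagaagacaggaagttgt
Cyp4a32, chr4:115273293-115273542, plus strand: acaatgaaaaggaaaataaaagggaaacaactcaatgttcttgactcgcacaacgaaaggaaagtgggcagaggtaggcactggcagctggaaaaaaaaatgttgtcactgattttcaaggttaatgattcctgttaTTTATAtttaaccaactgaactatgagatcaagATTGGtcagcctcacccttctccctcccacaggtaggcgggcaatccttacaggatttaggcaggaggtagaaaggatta

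All 4 windows held the letters CCAAT once, read on the opposite strand as ATTGG, which began 64 bases before the start in Cyp4f14, 78 in Cyp4f15, 76 in Cyp4f13 and 80 in Cyp4a32. These letters occurred on either strand in 33.8% of all 32851 promoter windows of that length. TATAAA was found in Cyp4a32 alone, on the opposite strand, and in 12.4% of all windows. The nuclear receptor half-site AGGTCA, found in 4607 of the 32851 windows, and its direct repeat with 1 base between, the arrangement that PPARα binds and found in 0.0335%, were in none of these windows, nor in that of Cyp4v3. A match is a description of letters only, and elements of the Cyp4 genes may lie outside 250 bases.

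Other genes of the pathways around the CYP4 enzymes were compared by lists. Of 34 other genes commonly counted as PPARα targets, all were tested, and 1 was lower and 3 were higher by the quasi-likelihood test of edgeR (adjusted p under 0.05). In that test 2.84% of all genes were lower and 4.56% were higher. The median log2 fold change of the 34 was -0.02, with 17 values below and 17 above 0. The gene that fell was Acaa1b, a peroxisomal thiolase, from 1230.5 ± 160.3 to 845 ± 47.3 CPM (SD, n = 3, log2 fold change -0.54, adjusted p = 0.0202 in the same edgeR test). Plin2, which coats lipid droplets, rose from 436 ± 57.8 to 972 ± 114 CPM (SD, n = 3, log2 fold change 1.16, adjusted p = 0.000908 in the same edgeR test). Fgf21, a fasting hormone of the liver, rose from 6.48 ± 1.28 to 14.7 ± 5.63 CPM (SD, n = 3, log2 fold change 1.18, adjusted p = 0.0361 in the same edgeR test), and Pdk4, a kinase that restrains pyruvate oxidation, rose with a log2 fold change of 0.78. Without vehicle replicate 2 or 3, or FGF19 replicate 1 or 2, 1 of the 34 was higher, and without FGF19 replicate 3 there were 5. The lower count was 0 without vehicle replicate 1 or 3 or FGF19 replicate 1 or 2, and 3 without FGF19 replicate 3. Over all genes, between 91 and 926 were lower and between 236 and 1015 were higher with each library left out. The Cyp4a median was -0.41, and the difference from the other targets was not tested. Ppara itself was at 290, 216 and 245 CPM with vehicle and at 282, 313 and 226 CPM with FGF19, overlapping values with a difference of 0.13 on the log2 scale (standard error 0.141, adjusted p = 0.648 in the same edgeR test).

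Of 21 genes for the steps after omega-hydroxylation, which share 5 genes with the PPARα targets, 3 were lower and 0 higher by the quasi-likelihood test of edgeR (adjusted p under 0.05) (1 higher by DESeq2, and 1 at an unadjusted p under 0.05), with a median of -0.19. The shares of all genes in the quasi-likelihood test were 2.84% lower and 4.56% higher. Aldh1a1, an aldehyde dehydrogenase, fell from 1207 ± 207 to 798 ± 45.4 CPM (SD, n = 3, log2 fold change -0.60, adjusted p = 0.0215 in the same edgeR test). Acsl1, which activates fatty acids to acyl-CoA, fell from 1973 ± 187 to 1445 ± 74.3 CPM (SD, n = 3, log2 fold change -0.45, adjusted p = 0.0280 in the same edgeR test), and Acaa1b was the other. Without vehicle replicate 1 or FGF19 replicate 1 or 2 the count was 0, and without vehicle replicate 3 it was 1. Aldh3a2, the fatty aldehyde dehydrogenase of this route, had a log2 fold change of -0.38 and did not pass (adjusted p = 0.329 in the same edgeR test), and is named for its role after its value was known.

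Among 15 tested genes of P450 redox partners and haem synthesis, 0 were lower by the quasi-likelihood test of edgeR (adjusted p under 0.05, 2.84% of all genes), with 4 at an unadjusted p under 0.05 (11.3% of all genes), 2 by DESeq2 and 1 by limma-voom or edgeR's likelihood ratio and exact tests. The 1 gene that rose was Hmox1, which breaks haem down, at 15.8 ± 2.84 CPM with vehicle and 25.9 ± 2.48 CPM with FGF19 (SD, n = 3, log2 fold change 0.71, adjusted p = 0.0166 in the same edgeR test), a call lost without vehicle replicate 1 or 2 or FGF19 replicate 2. Por, the reductase that passes electrons to all microsomal P450 enzymes, had a log2 fold change of -0.55 (adjusted p = 0.0520 in the same edgeR test), and is named for its role after its value was known.

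Of 18 regulators 3 were lower and 1 was higher by the quasi-likelihood test of edgeR (adjusted p under 0.05), where 2.84% of all genes were lower and 4.56% higher. Nr0b2, the gene of the repressor SHP, rose from 13.9, 21.8 and 30.9 CPM to 64.5, 54.5 and 54.8 CPM (log2 fold change 1.38, adjusted p = 0.00823 in the same edgeR test). Nr1i3, the gene of the xenobiotic receptor CAR, fell from 179 ± 11.7 to 115 ± 28.7 CPM (SD, n = 3), and Nr1h4, the gene of the bile acid receptor FXR, fell from 151 ± 11.3 to 98.5 ± 16.8 CPM (SD, n = 3). Onecut1, a liver transcription factor, was low and fell from 5.79 ± 1.94 to 2.19 ± 0.383 CPM (SD, n = 3). The adjusted p of these 3 lay between 0.0159 and 0.0381 in the same edgeR test, and the count of lower regulators was 0 without vehicle replicate 1 or 3 or FGF19 replicate 2 and 1 without FGF19 replicate 1.

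The enzymes that turn arachidonic acid into epoxides use the substrate that Cyp4a12a hydroxylates at the omega end. With leukotriene and prostaglandin genes they made a list of 22, of which 19 were tested, with a median log2 fold change of -0.34. By the quasi-likelihood test of edgeR 3 fell (adjusted p under 0.05), namely Cyp2c54, Cyp2c37 and Cyp2c50, with log2 fold changes of -0.79, -0.67 and -0.61 and adjusted p of 0.00282, 0.00808 and 0.0101. In that test 2.84% of all genes were lower and 4.56% were higher. DESeq2 and edgeR's likelihood ratio test put this count at 8, and it was 5 without vehicle replicate 2 and 6 without FGF19 replicate 3. The 1 that rose, Cyp2c70, makes muricholic bile acids in mice and is no arachidonate epoxygenase in the usual sense (log2 fold change 1.26, adjusted p = 0.00117 in the same edgeR test). Among 10 other male-biased liver genes, a list that holds neither Cyp4a12a nor Cyp4a12b, 0 passed in either direction in edgeR's quasi-likelihood test (2 lower and 1 higher at an unadjusted p under 0.05, and 1 lower and 1 higher by DESeq2), with a median of -0.20.

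**Figure D4:**
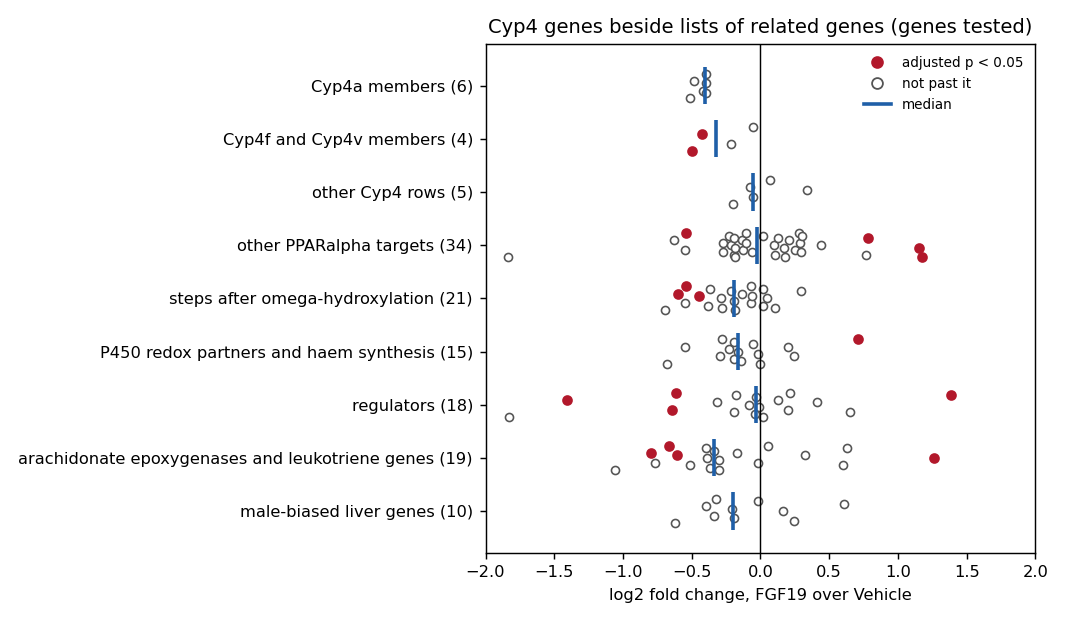
Log2 fold change of FGF19 over Vehicle (x axis) of every tested gene in each list (number in brackets), with genes past an adjusted p of 0.05 in red and the median of the list as a blue line. The Cyp4a median of -0.41 lies to the left of the -0.02 of the other PPARα targets, whose genes spread to both sides of 0.

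Some other groups of genes moved with the treatment beside the CYP4 genes. All 18 acute phase genes had higher values, 17 of them past the quasi-likelihood test of edgeR (adjusted p under 0.05), and their summed level was between 21008 and 25266 CPM with vehicle and between 66444 and 73252 CPM with FGF19. The 8 neutrophil markers in the files summed to between 0.667 and 1.74 CPM with vehicle and to between 3.58 and 4.78 CPM with FGF19. Only 1 of these 8 had enough counts to be tested, so the sums are low and may rest on few genes. The part of the acute phase and neutrophil genes in the lower CYP4 values was not tested. The 10 hepatocyte markers summed to between 115363 and 120604 CPM with vehicle and to between 103878 and 117169 CPM with FGF19, overlapping values, with 0 past the edgeR quasi-likelihood test in either direction (4 lower and 1 higher at an unadjusted p under 0.05, 2 lower by DESeq2 and 1 lower by limma-voom and by edgeR's likelihood ratio and exact tests). Of the 7 markers of kidney, which also expresses Cyp4a genes, 6 (among them Umod, Kap, Slc12a1, Aqp2 and Slc22a6) were at 0 in all libraries. The summed Kupffer cell, endothelial, stellate cell, cholangiocyte, adipocyte and pancreatic acinar markers overlapped between the groups. Single markers among them rose all the same by the quasi-likelihood test of edgeR (adjusted p under 0.05), namely 2 of the 9 tested Kupffer cell and monocyte markers (Marco and Cd68, with log2 fold changes of 2.29 and 0.66) and 1 of the 7 endothelial markers (Cdh5, 0.43). In the same lists 4 of the 9 and 3 of the 7 had log2 fold changes below 0, with list medians of 0.04 and 0.14. Of each list 1 was lower at an unadjusted p under 0.05 in the same edgeR test. The part of these markers in the CYP4 values was not tested either. The summed small intestine markers overlapped as well, at between 1007 and 2692 CPM, with Sis, Reg3g and Fgf15 at 0. Of these 7 markers 2 had enough counts to be tested. The sum thus rests on few genes, and it cannot be read as an amount of intestinal RNA.

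The genes whose values ran most like those of 2 members were taken from 11646 other genes with a mean of at least 1 CPM, by Pearson's r of log2 CPM over the 6 libraries. For Cyp4a14 they were Depdc7, Tm6sf2 and Ezh2 (r of 0.994, 0.985 and 0.984), and for Cyp4f14 they were Ugt2b1, Impa1 and Aldh1a1 (r of 0.998, 0.996 and 0.9951). With 6 libraries and this many candidates such values are a description only. Among the members themselves r was 0.985 between Cyp4a12b and Cyp4a32, 0.982 between Cyp4a12a and Cyp4f15, 0.753 between Cyp4a14 and Cyp4a10, and -0.236 between Cyp4a14 and Cyp4v3.

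**Figure D5:**
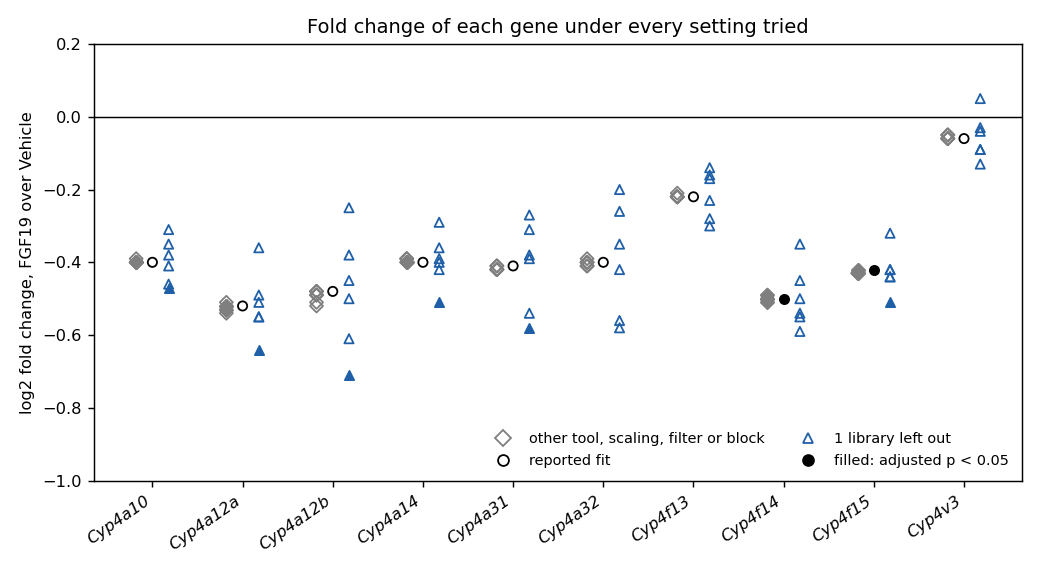
Log2 fold change of FGF19 over Vehicle (y axis) of each member in the reported fit (circle), in 8 fits with another tool, scaling, filter or block (diamonds) and in 6 fits with 1 library left out (triangles), filled where the adjusted p was under 0.05. The fits without a library spread far wider than the other fits, and Cyp4v3 is the 1 gene with a value above 0.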

How the data were processed

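RNA-seq of liver from 3 vehicle-treated and 3 FGF19-treated C57BL/6 mice was used. Per the labels and file headers, the authors trimmed reads of 100 bases with Trimmomatic 0.36, aligned them with STAR to mm9 and counted them on exons with featureCounts 1.5.2. The labels give STAR 2.5.3a, and the paper's methods name another STAR version. The deposited values are raw read counts per gene. Strand was not used, mates were counted separately, and multi-mapping reads were not counted. The authors' table of their own comparison (log2 fold changes, mean log2 CPM and p-values) was not used.

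Counts were scaled by TMM (factors between 0.964 and 1.03) and tested with the quasi-likelihood test of edgeR 4.0.16 in R 4.3.3, without covariates, on the 12559 genes kept by filterByExpr. Adjustment was by Benjamini-Hochberg over all these genes. The study used edgeR with a p threshold of 0.01. RPKM used the exon length in the files. The fits were tested on simulated data with the same spread for all genes and planted changes larger than those of the members. That test does not speak to changes as small as those of the members. Total counts were between 18994654 and 22920056 a library, so 3 counts are between 0.131 and 0.158 CPM. All 6 libraries differed by more than the sampling noise. Labels name no batch.

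Exon windows of 100 bases were searched in mm9 by exact match, and coding sequences came from GENCODE vM1, which is on the same build (99.8% of 21862 genes of the same name overlap in position). The members and gene lists were chosen with earlier results of these data known. Named genes are all members, up to 6 genes a list by size of change among those with an adjusted p under 0.05 and no overlap between groups, and Ppara. Aldh3a2, Por and the named markers of other cells were chosen outside this rule, after their values were seen. Alternatives were DESeq2 1.42.0, limma-voom (limma 3.58.1), edgeR's likelihood ratio and exact tests, no TMM scaling, no filter, at least 1 CPM in every library, the replicate number as a block, and each library left out in turn.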

Additional observations from a re-analysis of the deposited data

How the results depend on the processing

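The median log2 fold change of the Cyp4a genes was between -0.58 and -0.29, and that of the Cyp4f and Cyp4v genes between -0.38 and -0.24, when each library was left out in turn. The log2 fold changes of 9 of the 10 genes were negative in all 14 alternative fits, and that of Cyp4v3 ranged from -0.13 to 0.05 with each library left out, above 0 without vehicle replicate 2 and negative in the other 13 fits. Calls depended more on the setting. The Cyp4a genes with an adjusted p under 0.05, 0 of 6 in the reported fit, were 3 with DESeq2, the likelihood ratio test or edgeR's exact test, 2 with no TMM scaling (379 lower genes in all), 1 with no filter (395 in all), and between 0 and 4 with each library left out (91 to 926 in all). The Cyp4f and Cyp4v genes, 2 of 4 in the reported fit, were 1 with no TMM scaling, where Cyp4f14 was lost, and between 0 and 1 with each library left out. At p under 0.01 without adjustment there were 2 lower Cyp4a genes and 626 lower genes in all.

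Over all genes, 357 were lower and 573 were higher in the reported fit. The lower genes were 579 with the likelihood ratio test and 566 with edgeR's exact test, and between 91 and 926 with each library left out, and the higher genes were between 236 and 1015, with the highest of both counts without FGF19 replicate 3. Of the other PPARα targets, 2 were lower with DESeq2, no filter, the likelihood ratio test or the exact test and between 0 and 3 with each library left out, and 5 were higher with DESeq2, the likelihood ratio test or the exact test and between 1 and 5 with each library left out. The cause of these differences was not tested.

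With the replicate number as a block there were 164 lower and 370 higher genes, 0 of the Cyp4f and Cyp4v genes and 0 of the other PPARα targets were lower, and Cyp4f14 and Cyp4f15 had adjusted p of 0.0667 and 0.0837 in edgeR's quasi-likelihood test. The numbers share no known origin, and libraries of the same number did not deviate together (r of -0.029, -0.172 and -0.178 across genes). The log2 fold changes with the block were -0.49 for Cyp4f14 and -0.43 for Cyp4f15. Low counts limit Cyp4f18 and Cyp4f39, at under 30 counts a library, and the reads left out limit the levels of the near-identical Cyp4a genes. Summing those copies left their log2 ratios at -0.50 and -0.40.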
